A study of Mus musculus with 5 samples.

Results

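The genes described here form the EGF receptor ligand and feedback system of salivary gland cells. They comprise 6 ligands (Areg, Ereg, Hbegf, Tgfa, Btc and Epgn), the receptors Egfr and Erbb3, and the feedback inhibitors Errfi1 and Dusp6. The members were chosen by symbol from the gene lists of the 5 libraries, and all 10 are listed in every library, out of 32932 genes in either gene list.

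The study profiled mouse salivary gland organoids (mSGOs) by scRNA-seq, in which each unique molecular identifier (UMI) counts one captured RNA molecule. Cells from the dissociated submandibular glands of C57BL/6 mice, all female per the study's methods, were grown in Matrigel and passaged before analysis. The 3 libraries of 7-day mSGOs were an untreated control, mSGOs given 7 Gy of photons on day 5 and mSGOs given 7 Gy of protons on day 5, all collected on day 7 and grown from the glands of 4 animals aged 8 to 12 weeks, whose cells the libraries do not tell apart. The other libraries were untreated mSGOs collected on day 11, from 4 other animals and a separate run, with an age given only in the study's methods, as the same 8 to 12 weeks, and freshly dissociated gland from mice aged 8 to 12 weeks. All mSGO cultures, controls included, were kept in medium with EGF and FGF2, each at 20 ng/ml, with Wnt3a- and R-spondin1-conditioned media, so the receptor system was exposed to added ligand in every mSGO library. About 45000 cells that excluded propidium iodide were sorted for each library. Each group is 1 library of pooled cells, so no test between conditions was possible and no p-value is given.

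EGF family ligands are made as membrane-anchored precursors that metalloproteases release from the cell surface. Binding pairs Egfr with itself or with another ErbB receptor and activates the RAS and ERK kinases, and Erbb3, which has little kinase activity of its own, signals as a partner of the other receptors. Active ERK raises the transcription of Errfi1, which binds and inhibits the receptor kinase, and of Dusp6, a phosphatase that switches ERK off, while the granular ducts of the mouse submandibular gland, which are prominent in males, store EGF for release into saliva.

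Levels are given as counts per 1000000 UMIs (CPM) of the kept barcodes of a library, with exact Poisson 95% intervals, and comparisons as log2 ratios of (CPM + 1) with exact 95% intervals of the ratio of counts. These intervals cover counting error only and say nothing of the spread between cultures or animals. Kept barcodes numbered from 1409 in the tissue to 16085 after protons and kept UMIs from 5954567 in the tissue to 32070703 at 11 days, with median UMIs per barcode of 898.5 to 1049 in the 7-day libraries, 3025 at 11 days and 2389 in the tissue. Barcodes in which Malat1, an RNA retained in the nucleus, made up at least 1% of UMIs were 8.56% to 16.0% of those in the 7-day libraries, 98.8% at 11 days and 11.2% in the tissue, and results are also given within them. The mSGO libraries carried the basal duct markers (summed levels 4200 to 9576 CPM) and held 9.16 to 31.3 CPM of the acinar markers, against 557190 CPM in the tissue. The 9 macrophage markers summed to 20.1 to 44.0 CPM in the mSGO libraries, with C1qa, C1qb and C1qc at 0, against 1257 CPM in the tissue. Any pair of libraries shared 3 to 69 cell barcodes.

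The ligand genes Epgn (ENSMUSG00000035020), Ereg (ENSMUSG00000029377), Areg (ENSMUSG00000029378) and Btc (ENSMUSG00000082361) lie in this order within 375478 bp of chromosome 5, between positions 91027517 and 91402994 of GRCm38. The other members are spread over the genome, with Egfr (ENSMUSG00000020122) at chr11:16752203-16913907, Erbb3 (ENSMUSG00000018166) at chr10:128567523-128589635, Errfi1 (ENSMUSG00000028967) at chr4:150853796-150868889, Dusp6 (ENSMUSG00000019960) at chr10:99263231-99267489 and Tgfa (ENSMUSG00000029999) at chr6:86195038-86275744. Hbegf has the identifier ENSMUSG00000024486. Promoter sequences of RefSeq (GRCm38.p6) were matched by symbol for 7 of the 10 members. The promoters of Areg, Errfi1 and Dusp6 are shown because these members were past a log2 ratio of 0.5 in size after photons, and that of Egfr because it had the highest ratio of the members between 7 and 11 days. Each is the 250 bases before the annotated start, on the + strand, with motif matches in capitals.
Areg promoter, chr5:91139349-91139598: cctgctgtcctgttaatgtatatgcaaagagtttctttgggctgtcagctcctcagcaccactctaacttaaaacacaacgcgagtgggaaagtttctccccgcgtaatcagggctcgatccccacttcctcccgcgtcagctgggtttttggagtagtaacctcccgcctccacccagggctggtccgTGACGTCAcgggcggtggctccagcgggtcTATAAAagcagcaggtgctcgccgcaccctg
Errfi1 promoter at its second annotated start, chr4:150854820-150855069: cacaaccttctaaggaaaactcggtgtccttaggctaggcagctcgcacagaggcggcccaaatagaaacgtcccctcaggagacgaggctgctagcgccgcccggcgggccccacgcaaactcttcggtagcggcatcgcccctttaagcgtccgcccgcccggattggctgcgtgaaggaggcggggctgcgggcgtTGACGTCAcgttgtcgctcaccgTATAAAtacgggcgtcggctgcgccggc
Dusp6 promoter, chr10:99262981-99263230: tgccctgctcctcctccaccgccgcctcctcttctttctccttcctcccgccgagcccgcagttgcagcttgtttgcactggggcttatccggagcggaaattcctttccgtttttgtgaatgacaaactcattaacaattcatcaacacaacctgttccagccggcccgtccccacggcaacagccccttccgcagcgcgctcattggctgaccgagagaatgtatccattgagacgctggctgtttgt
Egfr promoter, chr11:16751953-16752202: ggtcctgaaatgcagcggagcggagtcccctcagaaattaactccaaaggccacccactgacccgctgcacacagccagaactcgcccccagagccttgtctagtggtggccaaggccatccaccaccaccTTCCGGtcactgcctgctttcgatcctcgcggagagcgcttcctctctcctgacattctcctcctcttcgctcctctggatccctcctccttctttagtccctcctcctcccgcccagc

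The motifs below were searched on both strands, and no match of one overlapped a match of another in these sequences. The Areg promoter holds TGACGTCA, the full cyclic AMP response element, 61 bases before the start and TATAAA, the TATA box, 31 bases before it. The second start of Errfi1 has the same pair, with TGACGTCA 51 and TATAAA 28 bases before it, whereas the first start of Errfi1 has no match to any of the motifs. Of 32851 promoters of the same length, 1.55% hold TGACGTCA and 12.4% hold TATAAA. The Egfr promoter holds the ETS core CCGGAA on the reverse strand (printed as TTCCGG) 119 bases before the start, as 12% of all promoters do on either strand, and the promoter of Epgn holds TATAAA 86 bases before its start. TGANTCA, the AP-1 motif with a free middle base, is in 6.75% of all promoters and in none of the 7 members with an entry. A match is a description of letters and not a binding site.

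Among the ligands, Areg was higher in both irradiated libraries than in any other. Areg encodes amphiregulin, a ligand of Egfr. It stood at 143 CPM (interval 137 to 149) in 7-day control mSGOs, 217 CPM (211 to 223) after photons, 207 CPM (201 to 212) after protons, 74.3 CPM (71.4 to 77.4) at 11 days and 1.18 CPM (0.473 to 2.42, 7 UMIs) in the tissue. The intervals of the irradiated libraries overlapped, and the tissue was lowest.

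Hbegf encodes a heparin-binding ligand of Egfr and Erbb4. Its level was 80.4 CPM (76.1 to 85.0) in control mSGOs, 76.6 CPM (73.2 to 80.1) after photons, 71.2 CPM (68.0 to 74.6) after protons, 95.7 CPM (92.3 to 99.1) at 11 days and 8.23 CPM (6.09 to 10.9) in the tissue. The control and photon libraries overlapped, as did the photon and proton libraries, and the 11-day library lay above all of these. Ereg, the epiregulin gene, had 15.4 CPM (13.5 to 17.4) in control mSGOs, 20.9 CPM (19.2 to 22.8) after photons, 15.3 CPM (13.8 to 16.9) after protons and 39.6 CPM (37.5 to 41.9) at 11 days, and no UMI in the tissue.

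The less abundant ligands each had their own order. Tgfa, encoding transforming growth factor alpha, had 15.8 CPM (13.9 to 17.9) in control mSGOs, 19.2 CPM (17.5 to 21.0) after photons, 21.9 CPM (20.1 to 23.8) after protons, 12.2 CPM (11.0 to 13.5) at 11 days and 0.504 CPM in the tissue, from 3 UMIs. Epgn, the epigen gene, had 9.36 CPM (7.92 to 11.0) in control mSGOs, 6.94 CPM (5.96 to 8.05) after photons, 5.42 CPM (4.55 to 6.39) after protons and 5.02 CPM (4.28 to 5.86) at 11 days, and no UMI in the tissue. For Epgn the photon interval overlapped those of the control and the proton library, and the proton and 11-day libraries also overlapped with each other. Btc, encoding betacellulin, was near the limit of detection everywhere, with 14, 42, 41, 125 and 5 UMIs in control, photon, proton, 11-day and tissue libraries, or 0.886, 1.66, 1.60, 3.90 and 0.840 CPM.

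Of the receptors, Egfr was the member with the widest separation between the ages of the mSGOs. Egfr had 30.9 CPM (28.2 to 33.7) in control mSGOs, 36.2 CPM (34.0 to 38.7) after photons, 36.0 CPM (33.7 to 38.4) after protons, 269 CPM (263 to 275) at 11 days and 2.02 CPM (1.04 to 3.52, 12 UMIs) in the tissue. The irradiated libraries overlapped with each other, and the proton library also just overlapped with the control. Erbb3 went the opposite way among the mSGOs, with 21.9 CPM (19.6 to 24.3) in control mSGOs, 15.8 CPM (14.3 to 17.4) after photons, 13.4 CPM (12.0 to 14.9) after protons, 9.54 CPM (8.50 to 10.7) at 11 days and 3.86 CPM (2.45 to 5.80) in the tissue. For Erbb3 the control was highest, and photon and proton libraries overlapped.

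The feedback inhibitors differed from each other in their order. Errfi1, which encodes the receptor inhibitor MIG6, had 166 CPM (160 to 173) in control mSGOs, 103 CPM (98.8 to 107) after photons, 137 CPM (133 to 142) after protons, 501 CPM (493 to 508) at 11 days and 19.5 CPM (16.1 to 23.4) in the tissue. No intervals of Errfi1 overlapped, and the control lay above both irradiated libraries. Dusp6 had 10.6 CPM (9.02 to 12.3) in control mSGOs, 19.1 CPM (17.4 to 20.9) after photons, 22.2 CPM (20.4 to 24.1) after protons, 28.3 CPM (26.5 to 30.2) at 11 days and 13.9 CPM (11.1 to 17.3) in the tissue. The control and the tissue overlapped for Dusp6, as did the photon and proton libraries, which both lay above the control.

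**Figure D1:**
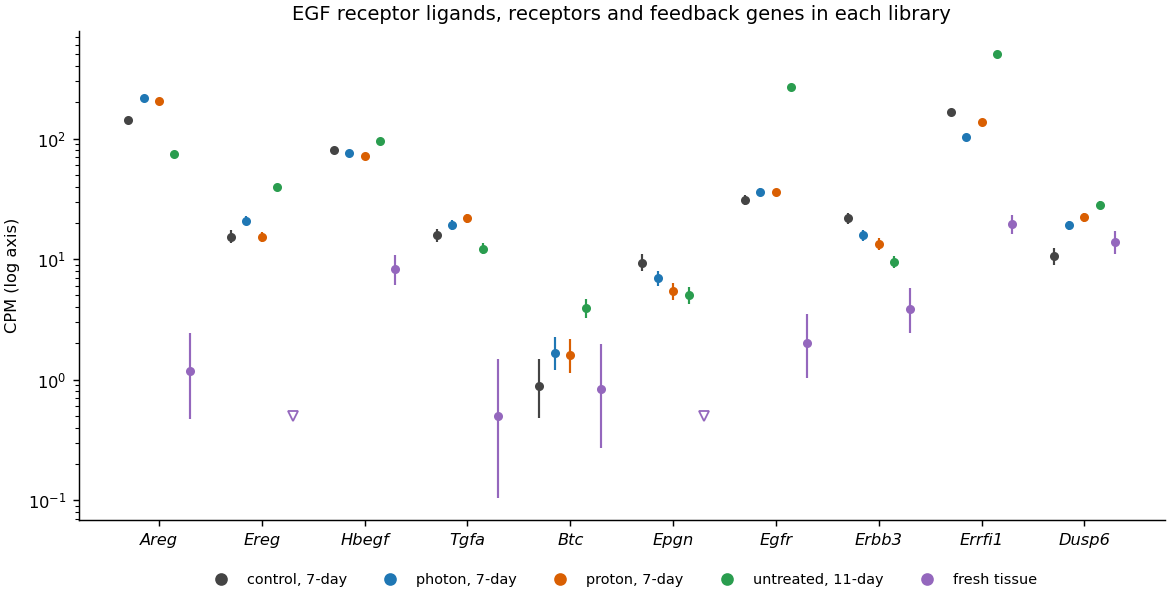
Level of each member (CPM, log axis) in each of the 5 libraries, with exact Poisson 95% intervals and open triangles for the floor of 3 counts where a library had no UMI. Egfr and Errfi1 were highest at 11 days (269 and 501 CPM), Areg was highest after photons (217 CPM), and Ereg and Epgn had no UMI in the tissue.

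The first comparison asked how the members differed 2 days after irradiation. Areg was 1.52-fold higher after photons (log2 ratio 0.60, 0.53 to 0.67) and 1.44-fold higher after protons (0.53, 0.46 to 0.60) than in the control. Dusp6 was 1.74-fold higher after photons (0.80, 0.60 to 1.12) and 2.01-fold higher after protons (1.00, 0.82 to 1.33). Errfi1 was lower after photons (-0.69, -0.77 to -0.61) and lower by less after protons (-0.27, -0.35 to -0.20). Erbb3 was lower in both (-0.45, -0.68 to -0.26 after photons and -0.67, -0.93 to -0.49 after protons), as was Epgn (-0.38, -0.76 to -0.11 and -0.69, -1.13 to -0.45). Both irradiated libraries are compared with the same control library, so these paired values are not independent of each other.

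A log2 ratio past 0.5 in size was taken as a difference worth counting. After photons, 2 of the 10 members were past it and higher (Areg and Dusp6) and 1 was lower (Errfi1), while after protons 2 were higher (Areg and Dusp6) and 2 lower (Epgn and Erbb3). Among genes with at least 200 UMIs in the 2 libraries together and 20 CPM in either, 4.39% of 4369 were past it and higher after photons and 2.2% lower, and 4.53% of 4347 were higher after protons and 2.35% lower. Of the members, 6 passed that filter on low values for photons and 7 for protons, Dusp6 only for protons and Epgn and Btc for neither. With the looser filter of 50 UMIs and 5 CPM, the shares were 5.72% higher and 2.64% lower after photons and 5.2% higher and 3% lower after protons. The median log2 ratio was 0.24 after photons and 0.10 after protons over all 10 members, beside 0.06 for each over genes with at least 1 UMI. Ereg passed the filter for photons, and Dusp6 and Tgfa passed it for protons, only through their level in the irradiated library. Erbb3 passed it in both comparisons only through its level in the control. Members lay past the limit in both directions.

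The remaining members were within the limit of 0.5 for both radiation types. Egfr was at 0.22 (0.07 to 0.39) after photons and 0.21 (0.06 to 0.38) after protons. Hbegf was at -0.07 (-0.17 to 0.03) and -0.17 (-0.28 to -0.07), Tgfa at 0.27 (0.06 to 0.51) and 0.45 (0.25 to 0.69), and Ereg at 0.42 (0.22 to 0.67) and -0.01 (-0.24 to 0.23). Btc was at 0.49 and 0.46, with lower interval bounds of 0.0019 and -0.054 from its 14 control UMIs.

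Within barcodes with at least 1% Malat1, Areg was under the limit of 0.5 for both radiation types (0.49 after photons and 0.41 after protons), while Dusp6 was past it (0.83 and 1.00) and Erbb3 was at -0.44 and -0.62. Errfi1 was at -0.50 after photons and -0.04 after protons there, and among the 193, 245 and 218 control, photon and proton barcodes with at least 2500 genes it was at -0.11 and 0.18. In those barcodes with at least 2500 genes, Epgn was at 0.34 after photons and -0.12 after protons. Hbegf was at -0.19 and -0.33 in the barcodes with at least 1% Malat1 and at 0.36 and 0.31 in those below 1%, so its direction depended on the barcodes taken. The summed level of the cycling markers was 361 CPM in the control, 215 CPM after photons and 246 CPM after protons, and their part in these ratios was not tested.

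**Figure D2:**
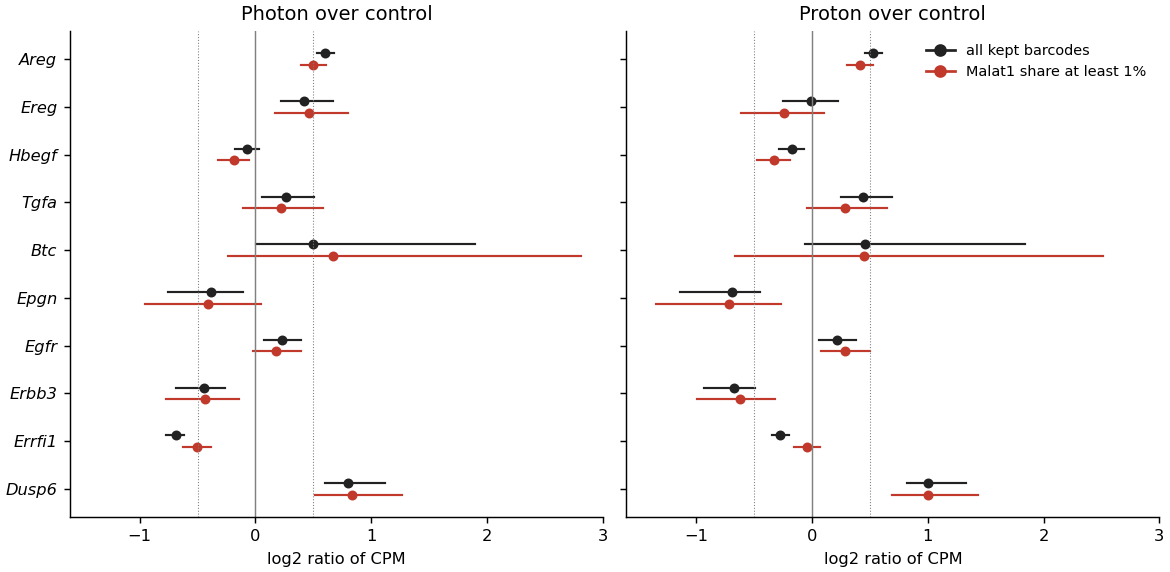
Log2 ratio of each member after photons and after protons over the shared control, in all kept barcodes and in those with at least 1% Malat1, with exact 95% intervals and dotted lines at 0.5 and -0.5. Areg (0.60 and 0.53) and Dusp6 (0.80 and 1.00) lay to the right, Erbb3 (-0.45 and -0.67) lay to the left, and Errfi1 lay further left after photons (-0.69) than after protons (-0.27).

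Photon and proton mSGOs were also compared directly. None of the 10 members was past 0.5, against a background of 0.684% of 4385 genes higher after protons and 0.798% lower. Errfi1 was higher after protons than after photons (0.42, 0.35 to 0.49) and Ereg was lower (-0.43, -0.65 to -0.26). Both values were larger than counting error, but with 1 library of each kind the spread between cultures is unknown. In the barcodes with at least 1% Malat1, Errfi1 was at 0.46 and Ereg at -0.70. For Areg (-0.07), Egfr (-0.01) and Dusp6 (0.21) the libraries lay closer together.

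The differences were then followed within clusters of the 7-day barcodes with at least 1% Malat1, which fell into 9 clusters. Cluster 5 (396 barcodes, led by Sprr1a, Sprr2d and Gjb2) was called stratified squamous-like and cluster 7 (140 barcodes, led by Cenpf, Hmmr and Nusap1) cycling-like from their markers, and the others are given by their leading genes. Areg was higher after protons than in the control in 8 of the 8 clusters with at least 20 Areg UMIs, with intervals above 0 in 5, and higher after photons in 7 of 8, with intervals above 0 in 5 and below 0 in 1. In the stratified squamous-like cluster Areg stood at 302 CPM in the control, 563 CPM after photons and 492 CPM after protons. Cluster 1, led by the nuclear RNAs Gm26724 and Tsix, was the exception, with Areg at 197 CPM in the control, 146 CPM after photons and 232 CPM after protons. In cluster 8, led by Lmo7, the control level of 152 CPM rested on 6 UMIs, against 520 CPM after photons and 615 CPM after protons.

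Dusp6 was higher after photons in 4 of 5 clusters with enough UMIs (3 intervals above 0) and after protons in 3 of 4 (3 intervals above 0). In cluster 3, led by Adm and Pfkfb3, Dusp6 had 15.9 CPM in the control, 32.1 CPM after photons and 44.3 CPM after protons. In that same cluster Errfi1 had 445 CPM in the control, 205 CPM after photons (log2 ratio -1.11, -1.34 to -0.89) and 332 CPM after protons (-0.42, -0.61 to -0.24), so the inhibitor genes lay on opposite sides of the control. Errfi1 was lower after photons in 7 of 8 clusters (4 intervals below 0), and the exception was the stratified squamous-like cluster, with 105 CPM in the control and 134 CPM after photons (0.35, 0.02 to 0.68). After protons Errfi1 was lower in 6 of 8 clusters, with 2 intervals below 0 and 1 above.

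Erbb3 was lower in 6 of 6 clusters after photons and in 6 of 6 after protons, although the interval lay below 0 in 1 cluster for photons and in none for protons. Hbegf had no common direction, being higher in 4 and lower in 4 clusters after photons and higher in 2 and lower in 6 after protons. It stood at 282 CPM in the control, 360 CPM after photons and 370 CPM after protons in the stratified squamous-like cluster and at 113, 79.2 and 73.1 CPM in cluster 2, led by Prss23 and Sostdc1. The clusters were made from all 3 libraries without correction between them.

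**Figure D3:**
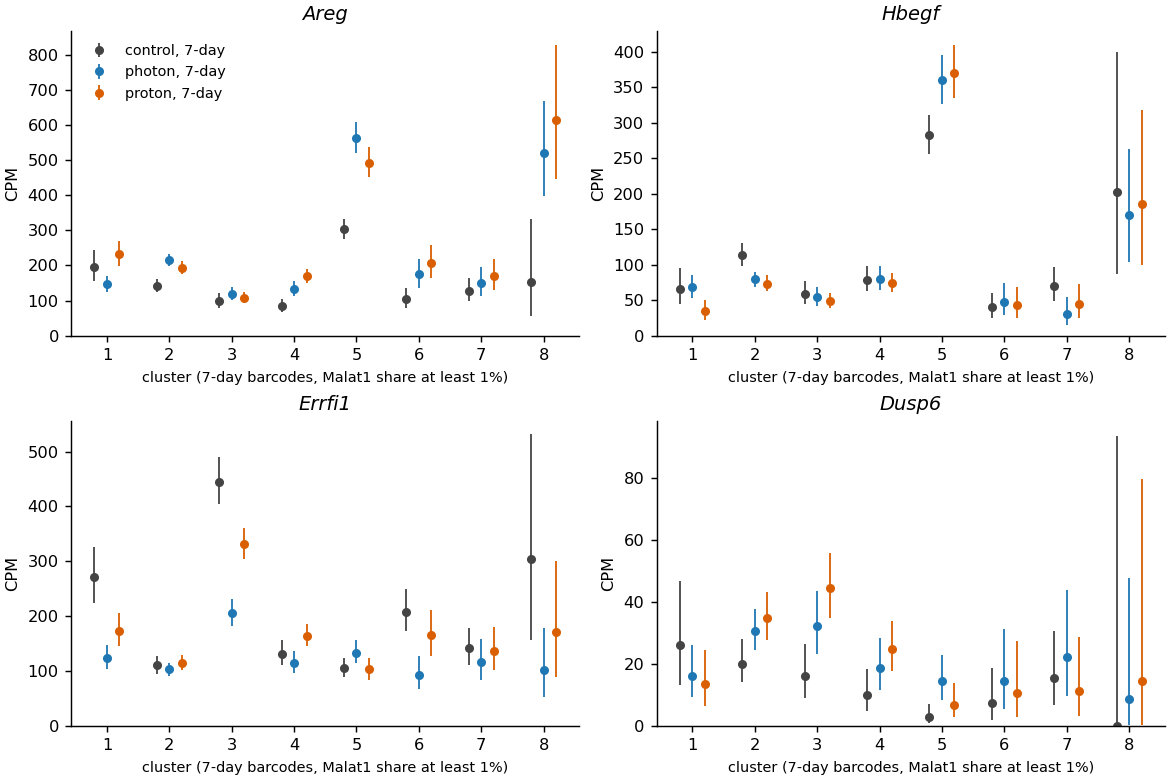
Level (CPM, with exact Poisson 95% intervals) of Areg, Hbegf, Errfi1 and Dusp6 in clusters 1 to 8 of the 7-day barcodes with at least 1% Malat1, by library. Over all 3 libraries Areg was high in the small cluster 8 (485 CPM, but 152 CPM from 6 UMIs in the control) and the stratified squamous-like cluster 5 (439 CPM), Hbegf was highest in cluster 5 (332 CPM), and control Errfi1 peaked in cluster 3 (445 CPM).

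Other genes of the pathway were taken from lists of ErbB ligands and receptors, ligand shedding, the adaptors and ERK cascade, and ERK feedback. None of the 16 adaptor and ERK cascade genes was past 0.5 after photons (median 0.08) or after protons (median 0.09), where the median over genes with at least 1 UMI was 0.06 for each. Without the filter, 1 of the 8 shedding genes was past it and higher after photons and 1 after protons, beside 4.92% and 4.33% of genes with at least 1 UMI. Of the 16 ERK feedback genes, 1 was past 0.5 and higher after photons and 2 after protons, and none was lower, beside the shares of all genes given above. Dusp4, a nuclear phosphatase of ERK that passed the filter only through its level after irradiation, had 15.9 CPM in the control, 25.0 CPM after photons (0.63) and 27.0 CPM after protons (0.73). Dusp7, like Dusp6 a cytoplasmic ERK phosphatase, had 85.3 CPM in the control, 109 CPM after photons (0.36) and 123 CPM after protons (0.53). Erbb2, the preferred partner of Erbb3, had 6.96, 5.84 and 4.75 CPM in control, photon and proton libraries, and Erbb4 had no UMI in any of them.

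Some immediate early genes, which tissue dissociation can also raise, differed between the same libraries. Of the 14 stress genes that passed the filter, 10 were within 0.5 in each comparison (median 0.02 in both), and 2 were higher and 2 lower, beside 4.39% and 2.2% of all genes after photons and 4.53% and 2.35% after protons. Fos had 63.9 CPM in the control, 124 CPM after photons (0.95) and 126 CPM after protons (0.97), while Ier2 had 292, 196 (-0.57) and 258 CPM (-0.17) and Hspa1a had 39.0, 22.3 and 25.3 CPM. The summed level of the stress list was 3087 CPM in the control, 2903 CPM after photons and 3254 CPM after protons, and its part in the levels of Areg, Dusp6 and Errfi1 was not tested.

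The second comparison asked how the members differed between untreated mSGOs of 7 and 11 days. Egfr was 8.51-fold higher at 11 days (log2 ratio 3.09, 2.998 to 3.264), and Errfi1 was 3.02-fold higher (1.59, 1.54 to 1.66). Dusp6 (1.35, 1.19 to 1.67), Ereg (1.32, 1.17 to 1.58) and Btc (1.38, from 14 and 125 UMIs) were higher too, while Areg (-0.93, -1.02 to -0.85), Epgn (-0.78, -1.22 to -0.56) and Erbb3 (-1.11, -1.42 to -0.97) were lower. Hbegf (0.25, 0.16 to 0.35) and Tgfa (-0.34, -0.60 to -0.13) were within 0.5. In all, 5 of 10 members were past 0.5 and higher and 3 lower, against 65% of 6634 genes higher and 10.7% lower. Of the members, 7 passed the filter behind these shares, Dusp6 and Ereg only through their 11-day level and Erbb3 only through its 7-day level. Over the 20311 genes with at least 1 UMI and no other filter, as for the 10 members, 46.3% were higher and 6.47% lower.

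The direction of the whole comparison has to be read beside these values, because the median gene had a log2 ratio of 0.97. Relative to that median, Egfr was at 2.12, Errfi1 at 0.62, Dusp6 at 0.38, Ereg at 0.35 and Btc at 0.41, and the lower members lay further down, with Areg at -1.90, Erbb3 at -2.08 and Epgn at -1.75. Hbegf then lay on the other side of 0, at -0.71, and Tgfa was at -1.31. Btc, Epgn and Tgfa did not pass the filter behind that median, and over genes with at least 1 UMI the median was 0.40. Among the few barcodes below 1% Malat1 at 11 days, Areg was at 0.19 and Errfi1 at -0.31, on the other side of 0 from the values above. In the barcodes with at least 1% Malat1, Egfr was at 2.50, Errfi1 at 1.49, Dusp6 at 1.10 and Areg at -1.13.

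Longer genes had higher ratios in this comparison. Over 6622 genes with a known span, the median log2 ratio was 0.18 in the class with the shortest spans when genes were cut into 4 classes of equal size, then 0.61, 1.26 and 2.22, and Spearman's rho between span and ratio was 0.61 across genes, which are not independent replicates. For the irradiation comparisons the rho was 0.14. Egfr spans 165961 bp and lay 0.87 above the median of its class, where 25.7% of genes had at least its ratio. Tgfa, which spans 80688 bp, lay below the median of the same class (difference -2.56), and 98.7% of that class had a ratio at least as high. The classes hold only genes that passed the filter, which Tgfa, Btc and Epgn did not, so these members are set beside more abundant genes.

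Errfi1 (0.98 above its class median), Dusp6 (0.74) and Ereg (0.71) lay in the next to shortest class and above its median, and Erbb3 lay in that class and below it (-1.72). The GENCODE span of Dusp6 is 16798 bp, and its RefSeq span of 4259 bp would place it in the shortest class (204 to 13010 bp). The short genes Areg (-1.11) and Epgn (-0.96) were below the median of theirs, and Hbegf (0.07) and Btc (0.12) were close to theirs. The headers of the deposited matrices name software version 3.0.1 for the 7-day libraries and 7.0.0 for the 11-day library, and Cell Ranger of the later version counts intronic reads by default. Age, animals, sequencing run and software version all separate these libraries together and cannot be told apart.

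**Figure D4:**
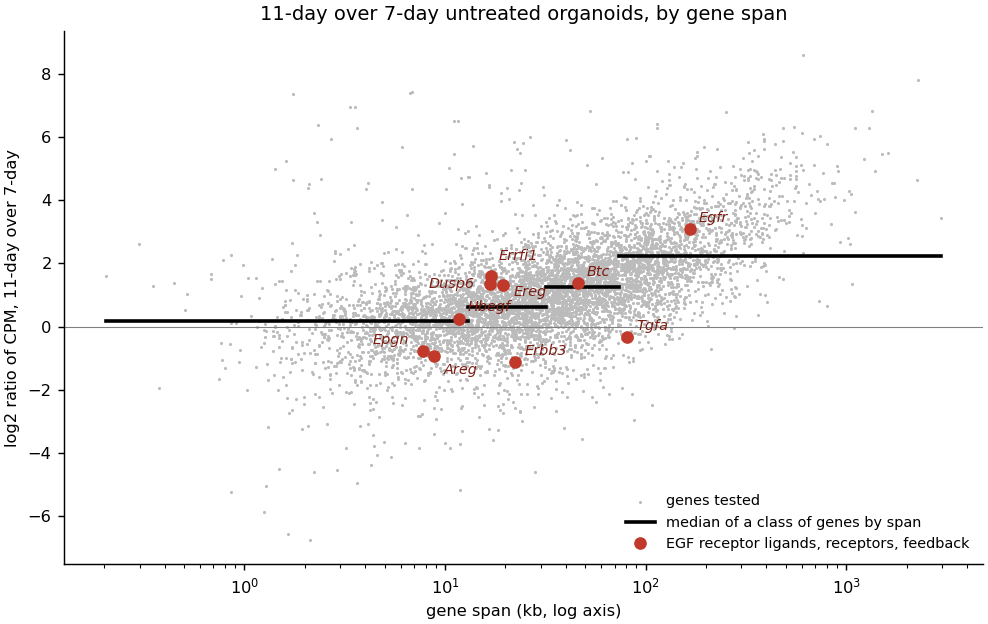
Log2 ratio of CPM at 11 days over 7 days (y axis) against gene span in kb (x axis, log) for the genes tested, with the members in red and black bars for the median of each of 4 classes of genes by span. The class medians climbed from 0.18 to 2.22, Egfr lay 0.87 above its bar and Tgfa lay below its bar by the largest margin of the members (-2.56). Tgfa, Btc and Epgn are drawn although they did not pass the filter for the genes tested.

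Other genes of the pathway showed both directions at 11 days. Of the 16 adaptor and ERK cascade genes, 12 were higher and 1 lower without the filter, and of the 16 ERK feedback genes 10 were higher and 4 lower, beside 46.3% higher and 6.47% lower over genes with at least 1 UMI. Of those that passed the filter, 11 of 15 and 8 of 11 were higher, beside 65% of all genes that passed. The medians over all genes of the lists were 1.11 and 1.53, against 0.40 over genes with at least 1 UMI. Braf, Cblb, Spry1 and Adam17 passed the filter only through their 11-day level, and Fosl1 only through its 7-day level. Braf, the kinase below RAS, went from 8.93 to 106 CPM (3.43) and Cblb, a ubiquitin ligase that removes active Egfr, from 13.6 to 227 CPM (3.97). Spry1, a Sprouty inhibitor of RAS signaling, went from 3.93 to 50.4 CPM (3.38). Phlda1 (305 to 64.6 CPM, -2.22) and the AP-1 gene Fosl1 (45.7 to 16.2 CPM, -1.44), both raised by ERK, were lower. Of the 8 shedding genes, 7 were past 0.5 and higher without the filter, beside the 46.3% of genes with at least 1 UMI. Adam17, the main protease for Areg and Tgfa precursors, was at 10.6 and 35.9 CPM (1.67), and Adam10 was at 34.0 and 114 CPM (1.71). Nrg1, a ligand of Erbb3 and Erbb4, was at 33.1 and 86.4 CPM (1.36) over the genes listed in both.

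The third comparison set the control 7-day mSGOs against the freshly dissociated gland. In the tissue Areg was at -6.05 (-8.24 to -5.88), Egfr at -3.40, Hbegf at -3.14 (-3.73 to -2.88), Errfi1 at -3.03 (-3.37 to -2.82) and Erbb3 at -2.24. Ereg was at least 30.5-fold lower and Epgn at least 18.6-fold lower, taking the floor of 3 counts per library. Dusp6 was at 0.37 (0.00 to 0.79). In all, 8 of 10 members were past 0.5 and lower and none higher. Of these, 5 passed the filter, each only through its 7-day level. Among all genes that passed it, 87.5% of 4249 were lower and 6.52% higher.

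Over genes with at least 1 UMI and no other filter, as for the 10 members, 47.9% of 17139 genes were lower and 14.9% higher, so how the members compare with other genes depended on the filter. A single acinar secretory gene, Mucl2, stood at 524891 CPM in the tissue. Among genes that passed the filter, the median gene was at -1.79. Relative to that median, Areg was at -4.26, Egfr at -1.61, Hbegf at -1.35, Errfi1 at -1.24 and Erbb3 at -0.45. Dusp6, which did not pass the filter, was at 2.16 relative to it, and the median over genes with at least 1 UMI was -0.43. With totals taken without the 50 most abundant genes, Areg was at -4.99, Errfi1 at -1.33, Hbegf at -1.51 and Dusp6 at 2.10. With totals taken without ribosomal, mitochondrial and Malat1 counts, Dusp6 was at -0.24 and the median gene at -2.29. Within barcodes with at least 1% Malat1, where the median gene was at -0.43, Areg was at -4.21, Hbegf at -1.13, Errfi1 at -1.22 and Dusp6 at 1.98, the last from 41 tissue UMIs. Egf, the ligand the gland is known for, went the other way, with 0.253 CPM (4 UMIs) in the control mSGOs and 15.1 CPM in the tissue. Fos, an immediate early gene, was at 527 CPM in the tissue, and its part was not tested.

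In the tissue, Hbegf was found mainly in a cluster that was not named as epithelium. Of the 49 Hbegf UMIs, 45 were in cluster 8, an endothelial-like cluster led by Cavin2 and Ptprb (199 CPM, 145 to 267). The 7 Areg UMIs came from only 2 of the 1409 tissue barcodes, and 6 of the UMIs were in 1 barcode of cluster 9, an unnamed cluster of 48 barcodes led by S100a8 and Retnlg. Dusp6 was highest in clusters 8 and 9 as well (70.9 CPM, 40.5 to 115, and 67.9 CPM, 42.6 to 103), and Errfi1 was at 66.5 and 98.8 CPM there. The 12 Egfr UMIs were all in clusters 1 to 5, which include the acinar-like cluster 1 and the granular and striated duct-like cluster 3. Egf was at 32.0 CPM in the duct-like cluster 3 and had no UMI in clusters 8 and 9.

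In 7-day mSGOs, Areg and Hbegf were higher in cluster 5 than in cluster 3 in each of the 3 libraries, and Errfi1 and Dusp6 were lower. With the libraries pooled, Areg was at 439 CPM (418 to 461) in the stratified squamous-like cluster 5 and 109 CPM (98.8 to 120) in cluster 3. In the small cluster 8 (112 barcodes) Areg was at 152 CPM in the control (6 UMIs), 520 CPM after photons and 615 CPM after protons, so its pooled level of 485 CPM came mostly from the irradiated libraries. Hbegf was at 332 CPM (314 to 351) and 53.1 CPM in clusters 5 and 3. Errfi1 was the reverse, with 113 CPM in cluster 5 and 317 CPM (299 to 335) in cluster 3, and so was Dusp6, with 7.52 CPM (5.00 to 10.9) and 33.3 CPM (27.8 to 39.6). Ereg was at 31.5 CPM (26.0 to 37.7) in cluster 5 and 29.8 CPM in cluster 2, where Dusp6 was at 29.3 CPM. Tgfa (39.5 CPM), Epgn (11.3 CPM from 42 UMIs), Btc (6.18 CPM) and Erbb3 (40.0 CPM) were high in cluster 5 as well, whereas Egfr ranged from 27.5 CPM in cluster 6 to 67.9 CPM in cluster 1. At resolutions 0.5 and 1.2, with 8 and 13 clusters, the highest Areg level was 672 and 680 CPM and the highest Hbegf level 484 and 493 CPM. The members were left out when the clusters were made, and each group is 1 library, so no test between clusters is given.

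At 11 days the barcodes fell into 12 clusters. Areg was highest in cluster 8, led by Dlk1 and Meg3 (149 CPM, 135 to 164), and in the cycling-like cluster 10 (139 CPM), and Errfi1 was low in both (82.6 CPM, 72.0 to 94.2, and 98.4 CPM). Errfi1 was highest in cluster 11, at 1961 CPM (1682 to 2273), where Egfr was highest too, at 457 CPM (328 to 620, 41 UMIs), but this cluster held 110 barcodes with a median of 762.5 UMIs. Among the larger clusters, Errfi1 was highest in cluster 5, led by Serpina3m and Selenop, at 834 CPM (801 to 868). Dusp6 (59.7 CPM, 43.5 to 79.8), Ereg (82.2 CPM, 63.0 to 105) and Epgn (13.3 CPM) were highest in the myoepithelial-like cluster 9. Hbegf was highest in cluster 2, led by P3h2 and F2rl1 (160 CPM, 148 to 172). Btc, the rarest ligand, had 48 of its 125 UMIs in cluster 4, led by Klk1b11 and Crisp3, and 40 in the stratified squamous-like cluster 6. Over clusters 1 to 10, Egfr ranged from 147 CPM (121 to 177) in cluster 10 to 345 CPM (331 to 360) in cluster 1.

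**Figure D5:**
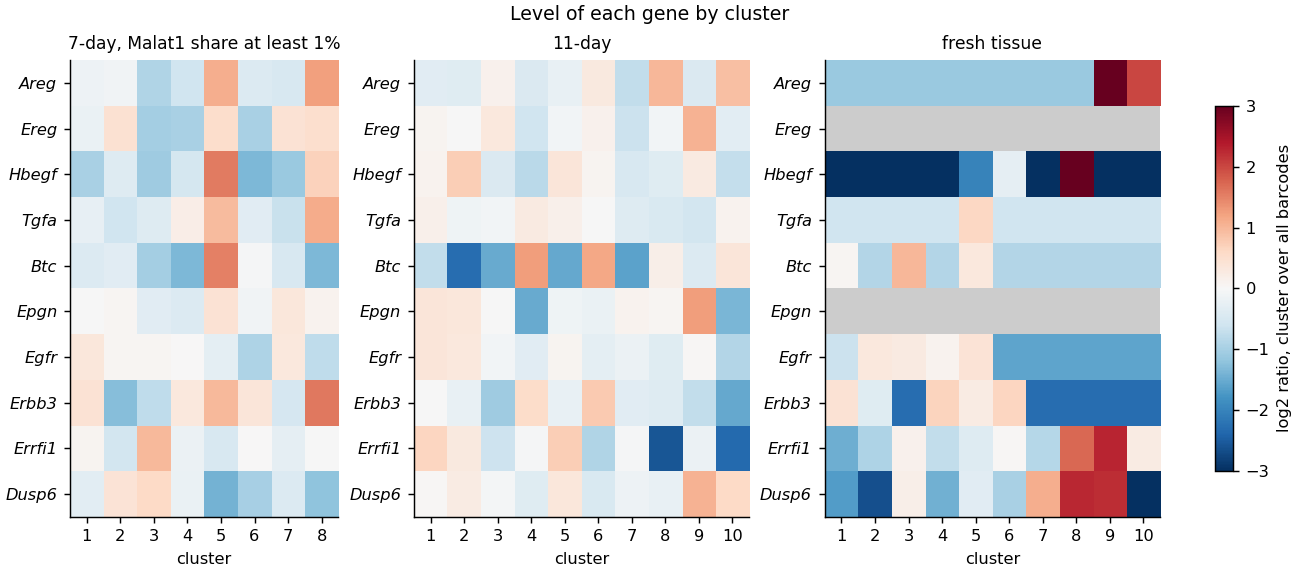
Log2 ratio of (CPM + 1) in each cluster over all clusters shown of the same set, for 7-day barcodes with at least 1% Malat1, 11-day mSGOs and tissue. The colour scale ends at 3 and -3, and grey marks genes without a UMI. The small 7-day cluster 9 and 11-day clusters 11 and 12 are left out of the map and of the reference. Areg, Hbegf, Tgfa and Btc were high in 7-day cluster 5, Errfi1 and Dusp6 were high in 7-day cluster 3, and tissue Hbegf lay in cluster 8.

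The likeness of the members' patterns was described across 36 units (clusters within libraries) and 7366 genes by Pearson's r of log2 levels, with units of 1 library sharing its depth and software. For the 7-day libraries the units were 5 clusters of all kept barcodes, and not the clusters described above. The genes most like Areg were Esd, Blmh and Msmo1 (each r = 0.97), those most like Egfr were Col4a5 (0.99), Pard3 and Ank3 (both 0.98), and those most like Errfi1 were Scmh1, Slc22a15 (both 0.94) and Actn1 (0.93). Ereg was nearest to Bcl11b (0.95), Hbegf to Rnd3 (0.94), Tgfa to Fam110c (0.97) and Erbb3 to Phldb3 (0.88). For Dusp6 the nearest were Itpripl2 (0.85), Spred1 and Larp7 (both 0.83), of which Spred1 encodes an inhibitor of the RAS and ERK pathway. Between members, r was highest for Areg with Tgfa (0.94) and Egfr with Ereg (0.93), was 0.87 for Egfr with Errfi1, and was lowest for Erbb3 with Dusp6 (-0.18). Btc and Epgn had too few UMIs to be placed.

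At the level of barcodes, each thinned to 1000 UMIs, Areg had a UMI in 11.1% of control, 18.3% of photon, 17.2% of proton, 5.95% of 11-day and 0.143% of tissue barcodes. For Errfi1 the shares were 15.7%, 9.09%, 11.6%, 35.3% and 1.43%, and for Egfr 2.62%, 3.40%, 3.37%, 22.3% and 0.359%. For these 3 genes the order of the libraries at this depth was the same as for CPM. Without thinning, Areg had a UMI in 19.5%, 23.1%, 21.4%, 14.9% and 0.142% of barcodes. The unthinned shares for Egfr were 6.50%, 5.13%, 5.09%, 50.2% and 0.852%, with the control above the irradiated libraries. Thinned to 2000 UMIs, the Egfr share was 5.72% for control, 6.36% for photon and 7.04% for proton barcodes. No cell type of the mSGOs is known to lack these genes, so the share that free RNA gives was not set. Among barcodes with at least 2000 UMIs, again thinned, the chromosome 5 ligands Areg and Ereg were found together in 15, 28, 21 and 75 barcodes of the control, photon, proton and 11-day libraries, against 6.41, 21.2, 12.9 and 57.8 from the product of their shares. For Areg and Egfr the corresponding ratios of found to product were 0.752, 0.883, 0.892 and 0.974.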

How the data were processed

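scRNA-seq counts were analysed for 5 libraries, 1 per group. The count matrices of UMIs per gene and barcode were deposited by the authors; the submitters' processing notes name Cell Ranger 5 and mm10, the study's methods name GRCm39, and the matrix headers name versions 3.0.1 (4 libraries) and 7.0.0 (11-day). Barcodes with at least 200 genes and at most 5% mitochondrial UMIs were kept, and doublets scored by Scrublet (0.635% to 14.6% of barcodes) were removed; for the control, photon and 11-day libraries the automatic cut marked under 0.5%, so the top scores were removed until the expected rate (0.8% per 1000 barcodes) was reached. Counts were summed per library, or per cluster (scanpy 1.11.5, Leiden resolution 0.8), and expressed as CPM with exact Poisson or binomial 95% intervals (scipy 1.17.1). The 11-day comparison used the 30406 genes in both gene lists. The computation was tested on simulated data. The members and gene lists were chosen with earlier results of these data known. Besides the members, the text names Egf, Nrg1, Erbb2 and Erbb4, up to 3 genes per list and direction with the largest ratios past 0.5 that passed the filter, and the 3 genes most like each member. Clusters were named from at least 3 markers. Gene spans came from GENCODE vM39 and promoters from RefSeq. Alternatives covered the barcode filters, scaling, pseudocount, thinning and threshold.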

Additional observations from a re-analysis of the deposited data

How the results depend on the processing

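No paired analysis was possible because each group is 1 library and the labels carry no replicate numbers. Clusters made from barcodes with at least 1% Malat1 and levels below 1% Malat1 were added after seeing the data. Below 1% Malat1 the 11-day over 7-day log2 ratio reversed for Areg (0.19 against -0.93) and Errfi1 (-0.31 against 1.59); the cause was not tested. For photons over control, the count of members past 0.5 and higher was 2 and became 4 with at least 500 genes, at least 2500 genes, at least 2000 UMIs or a threshold of 0.3, and 0 at a threshold of 1; the count lower was 1 and became 2 with at least 500 genes, at most 2500 genes, median-of-ratios scaling, totals without ribosomal, mitochondrial and Malat1 UMIs, equal weight per barcode or thinning to 1000 UMIs, 3 at 0.3 and 0 at 1. For protons over control, the count higher was 2 and became 4 with at least 2500 genes or at 0.3, and 1 with at most 2500 genes, at least 1% Malat1, median-of-ratios scaling or at 1; the count lower was 2 and became 1 with at least 2500 genes or thinning to 1000 UMIs, and 0 with a pseudocount of 10 CPM or at 1. For protons over photons, the counts of 0 became 1 higher with at least 2500 genes or at 0.3, and 1 lower with at least 500 genes, at least 2500 genes, at least 1% Malat1 or at least 2000 UMIs, and 2 lower at 0.3. For 11 over 7 days, the count higher was 5 and became 3 with median-of-ratios scaling; the count lower was 3 and became 1 with at least 2500 genes or at 1 and 5 with median-of-ratios scaling. Changes of these counts within 1.5 times are not listed. For tissue over 7-day mSGOs, the count higher was 0 and became 1 with at least 500 genes, at least 2000 UMIs or at 0.3, and 2 with at least 1% Malat1, median-of-ratios scaling or totals without the 50 most abundant genes. Over 16 alternatives, Areg ranged from 0.49 to 0.82 after photons and from 0.41 to 0.97 after protons, Dusp6 from 0.50 to 1.13 and from 0.65 to 1.64, Errfi1 from -0.92 to -0.11 and from -0.47 to 0.18, and Egfr at 11 days from 2.11 to 3.27. Areg was past 0.5 in 15 of these alternatives after photons and in 10 after protons. With at least 1% Malat1, the count after photons stayed at 2 because Btc (0.67) took the place of Areg (0.49). Depth limited Btc in all libraries and every member in the tissue.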

Other observations

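Barcodes left out for more than 5% mitochondrial UMIs carried UMIs of all 10 members in the mSGO libraries and of 8 in the tissue, where Ereg and Epgn had none. There were 279 in the control, 905 after photons, 751 after protons, 3927 at 11 days and 532 in the tissue. Errfi1, the receptor inhibitor, was at 246 CPM in those of the control, 126 CPM after photons, 180 CPM after protons, 1218 CPM at 11 days and 43.0 CPM in the tissue. Egfr was at 102, 83.5, 96.1, 630 and 7.59 CPM in the same order. For both genes each of these levels was above that of the kept barcodes of the same library. Other members did not all share this, as Areg at 11 days was at 50.5 CPM in the left-out and 74.3 CPM in the kept barcodes, and control Dusp6 was at 3.90 CPM (2 UMIs) and 10.6 CPM.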
